A study of Mus musculus with 12 samples.

Results

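The effect of Eftud2 genotype on transcript levels in cranial tissue of mouse embryos, whose labels disagree on the tissue as described below, was compared between embryonic day 9.0 (E9.0) and E9.5. The measure is the interaction of genotype and stage, that is the difference between homozygous and heterozygous libraries at E9.5 minus the same difference at E9.0, on the log2 scale. It was computed for every tested gene from all 12 of the 12 libraries of the series, and no gene was selected beforehand. A negative interaction means that the homozygous libraries stood lower relative to the controls at E9.5 than they did at E9.0. The same number is the change between stages in homozygous libraries minus that in controls, so each gene is described both ways.

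The 4 groups held 3 libraries each. They were heterozygous Eftud2+/- controls at E9.0, homozygous Eftud2-/- mutants at E9.0, heterozygous controls at E9.5 and homozygous mutants at E9.5, all of strain C57Bl/6. The alteration is given as specific to neural crest cells, and the controls carry 1 altered allele as well. The labels name neither the Cre driver nor the form of the allele, nor how many embryos went into a library. They also disagree on the tissue, which is given as neural crest cells, as cranial nerve ganglia and, in the protocol, as heads. Transcripts of endothelium, blood and neural tube were present in every library, as described below, and no single cell type is assumed here. In bulk RNA, fewer cells of a type and less RNA per cell cannot be told apart.

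Eftud2 encodes a GTP-hydrolysing subunit of the U5 snRNP, a small nuclear ribonucleoprotein in the core of the spliceosome, the machine that removes introns. Neural crest cells leave the edge of the neural tube and populate the pharyngeal arches, where homeobox transcription factors such as the Dlx, Msx, Barx and Lhx proteins assign positions within the future jaws. p53, encoded by Trp53, is a transcription factor that is held low by the ubiquitin ligase Mdm2 and, when stabilised, switches on genes of cell cycle arrest, stress response and cell death. The series addresses Mdm2 splicing, p53 activity and craniofacial defects in a model of mandibulofacial dysostosis with microcephaly. Counts per gene do not show splicing.

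The libraries held 13914543 to 31172708 counts. Rn45s, the precursor of ribosomal RNA, held 37.4% of all counts in control replicate 1 of E9.0 and 4.40% to 16.2% elsewhere, so the results were also computed without that library. Its counts differed from those of the other E9.0 controls by a chi-square of 213 and 313 per gene, against 10.6 between those controls. Mutant replicate 2 of E9.0, where Rn45s held 6.05%, differed from the other E9.0 mutants by 60.3 and 103, against 12.1 between them. These chi-squares used raw counts scaled by their totals and included Rn45s, so the Rn45s share itself enters them. How much of them lay beyond Rn45s was not tested. Eftud2 itself was at 302, 275 and 279 CPM (counts scaled to library size) in E9.0 controls and at 236, 234 and 232 CPM in E9.0 mutants. At E9.5 it was at 248, 255 and 264 CPM in controls and at 226, 221 and 226 CPM in mutants. The genotypes were apart at each stage, and the interaction of Eftud2 was 0.10 ± 0.08 (SE), which missed the threshold (edgeR adjusted p 0.755). A difference in the depletion of the Eftud2 transcript between stages was therefore not detected. With total counts as the only scaling, which shifts the median of all genes to -0.192, the interaction of Eftud2 was -0.11. Summed heart muscle transcripts ran from 74.2 to 372 CPM at E9.0 and from 2275 to 3571 CPM at E9.5, and summed erythroid transcripts from 572 to 1242 CPM and from 2857 to 5323 CPM. The genotypes overlapped in both at each stage. Y-linked transcripts summed to between 0 and 215 CPM per library, and the part of sex in the results was examined with these as a covariate, under which all 10 genes below kept their call. Some libraries held both Y-linked transcripts and Xist, a transcript of female cells. Control replicate 2 had Xist at 280 and Y-linked transcripts at 110 CPM at E9.0, and 382 and 54.5 CPM at E9.5. Others held mainly 1 of them, such as mutant replicate 3 of E9.0 (453 and 0.0675 CPM) and control replicate 1 of E9.5 (0.183 and 215 CPM). Whether libraries pool embryos was not tested.

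Of 14810 tested genes, 10 passed the threshold of the interaction (edgeR quasi-likelihood test, Benjamini-Hochberg adjusted p under 0.05), which is 0.0675% of those tested. A single gene, Cd44, had a positive interaction (0.00675% of genes tested) and 9 had a negative one (0.0608%). At an unadjusted p under 0.05 there were 1274 genes (8.60%), 604 with a positive interaction (4.08%) and 670 with a negative one (4.52%). For comparison, the genotype effect by itself passed the same threshold for 87 genes at E9.0 (0.587%) and for 280 genes at E9.5 (1.89%). There were 317 genes called at 1 stage and not at the other, and for 9 of these the interaction passed. For the other genes called at a single stage a difference between stages was thus not shown. The median standard error was 0.148 for the interaction against 0.108 for the E9.0 effect and 0.10 for the E9.5 effect, and the smallest interaction that passed had a size of 0.67.

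**Figure D1:**
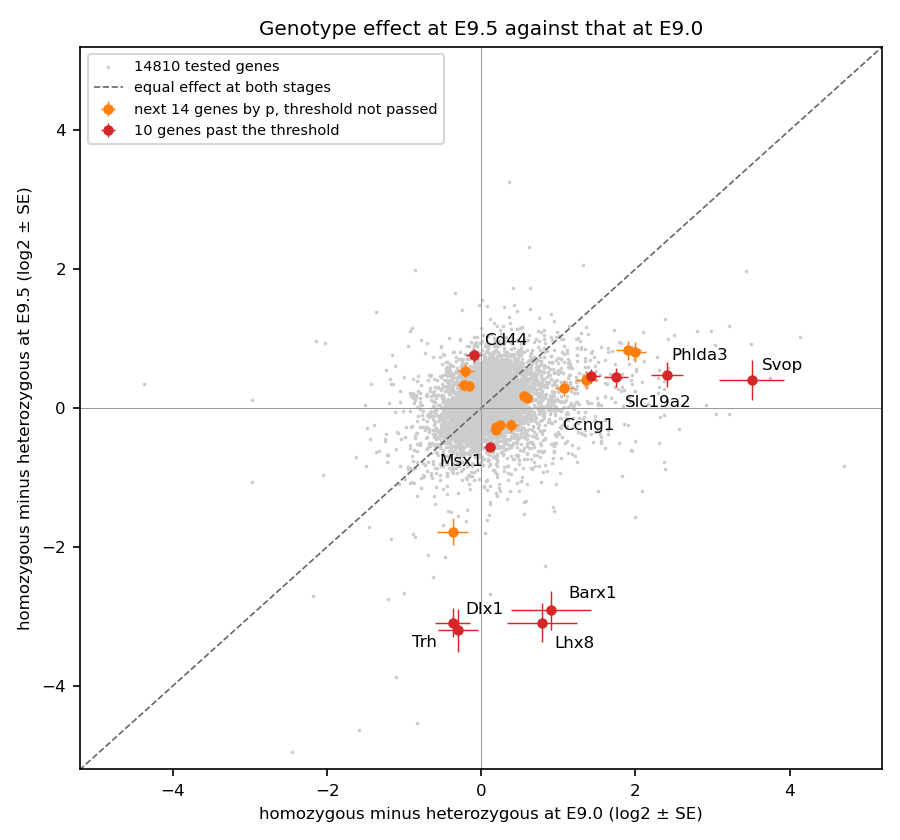
Log2 difference between homozygous and heterozygous libraries at E9.5 (vertical axis) against the same at E9.0 (horizontal axis) for 14810 tested genes, of which 1 lies outside the axes. Bars are standard errors, red points are the 10 genes past the interaction threshold, orange points the next 14 by p, and distance from the dashed line is the interaction; Dlx1, Trh, Lhx8 and Barx1 lie far below the line near the vertical axis, and Svop and Phlda3 lie to the right of it.

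The 10 genes fell into 2 patterns by the stage with the larger genotype effect. In 6 of them, Dlx1, Lhx8, Barx1, Msx1, Trh and Cd44, the larger effect was at E9.5, where all 6 passed the threshold of the genotype effect and at E9.0 none did. In the other 4, Slc19a2, Ccng1, Phlda3 and Svop, the larger effect was at E9.0, where all 4 were higher in mutants. Among the 10, Ccng1 alone was called at both stages. The change between stages passed the threshold in controls for 9 of the 10 (against 35.2% of all tested genes) and in mutants for 5 (against 35.4%). These stage changes share libraries with the interaction and are given as a description.

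**Figure D2:**
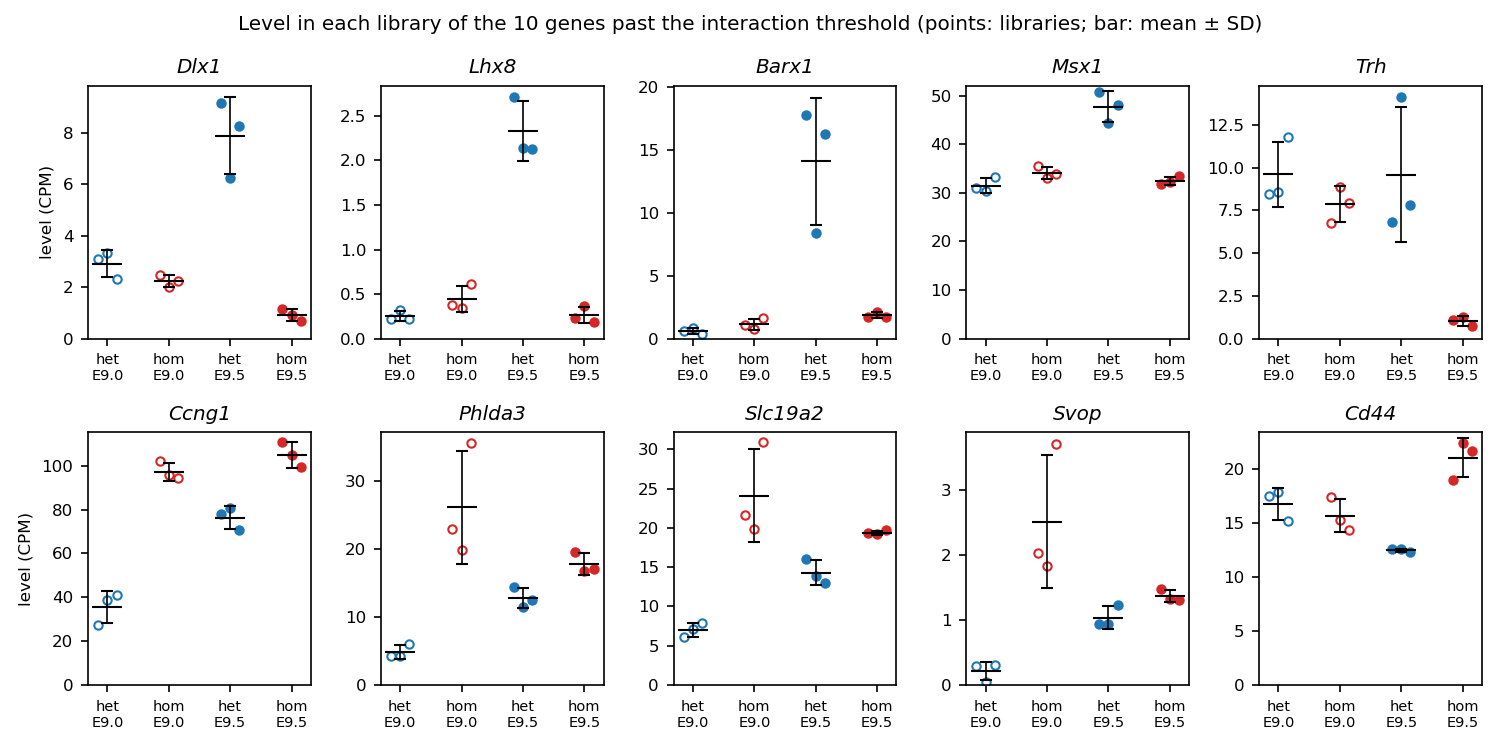
Level in CPM of each of the 10 genes past the interaction threshold in each of the 12 libraries, on linear axes from 0, with 1 panel per gene. Points are libraries (blue heterozygous, red homozygous, open E9.0, filled E9.5) and bars are means ± SD of 3; the arch genes and Trh separate the genotypes at E9.5, and Ccng1, Phlda3, Slc19a2 and Svop are lowest in E9.0 controls.

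Of the 6 genes with the larger effect at E9.5, 4 encode transcription factors of the pharyngeal arches. Dlx1 is a distal-less homeobox factor expressed in crest-derived arch mesenchyme and in the forebrain (GRCm38 chr2:71528113-71533981, plus strand). Its level was 3.08, 3.32 and 2.32 CPM in E9.0 controls, 2.48, 2.0 and 2.23 CPM in E9.0 mutants, 9.17, 6.25 and 8.27 CPM in E9.5 controls and 1.15, 0.921 and 0.675 CPM in E9.5 mutants. The genotypes overlapped at E9.0 and lay far apart at E9.5. Between stages Dlx1 rose in controls by 1.45 ± 0.19 and fell in mutants by 1.27, with an SE of 0.26. The genotype difference was -0.37 ± 0.23 at E9.0 (0.506 as edgeR adjusted p) and -3.09 ± 0.21 at E9.5 (1.38e-06), which gave an interaction of -2.72 ± 0.32 (edgeR adjusted p 0.00349). The call of Dlx1 held in each of 12 fits without 1 of the libraries. Dlx1as overlaps it on the opposite strand, and the strand setting of the counting is not given in the sources used here.

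Lhx8 encodes a LIM homeobox factor of the oral side of the first arch (chr3:154306288-154330560, minus strand). It was barely present at E9.0, at 0.220, 0.322 and 0.215 CPM in controls and 0.376, 0.344 and 0.608 CPM in mutants, with as few as 3 counts in a library. At E9.5 it stood at 2.71, 2.14 and 2.13 CPM in controls and at 0.236, 0.368 and 0.187 CPM in mutants. The controls rose between stages by 3.18 ± 0.32, whereas the change in mutants was -0.70 ± 0.41 and did not pass (edgeR adjusted p 0.207). The interaction was -3.88 ± 0.55 (edgeR adjusted p 0.0181). It lost its call without mutant replicate 3 of either stage, and its log2 value ran from -4.20 to -3.59 over the 12 fits.

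Barx1, a BarH-like homeobox factor of the proximal arch mesenchyme and later of molar teeth (chr13:48663036-48666507, plus strand), was at 0.587, 0.858 and 0.387 CPM in E9.0 controls and 1.05, 0.744 and 1.62 CPM in E9.0 mutants. In E9.5 controls it reached 17.8, 8.36 and 16.3 CPM, and in E9.5 mutants 1.72, 2.15 and 1.72 CPM. The groups overlapped at E9.0 and did not at E9.5, where replicate 2 was the lowest control. The controls rose by 4.55 ± 0.36 and the mutants changed by 0.73 ± 0.40 (edgeR adjusted p 0.171). The interaction of -3.82 ± 0.60 (edgeR adjusted p 0.0301) kept its call in 3 of 12 fits, those without 1 E9.5 control library. It was lost without any single E9.0 library or E9.5 mutant library, with values between -4.18 and -3.47. Of the 14 alternatives with all libraries, limma-voom (adjusted p 0.325) and edgeR without a filter on low counts also ended the call, in a range from 3.16e-10 to 0.325.

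Msx1, a homeobox target of BMP signalling in arch mesenchyme (chr5:37820491-37824585, minus strand), showed a smaller difference at a higher count. It was at 31.0, 30.3 and 33.3 CPM in E9.0 controls, 35.5, 33.1 and 33.8 CPM in E9.0 mutants, 50.8, 44.4 and 48.2 CPM in E9.5 controls and 31.8, 32.3 and 33.5 CPM in E9.5 mutants. The 3 E9.5 control libraries stood above the other 9, which lay between 30.3 and 35.5 CPM. The controls rose by 0.60 ± 0.07 and the change in mutants was -0.07 ± 0.07, with an interaction of -0.67 ± 0.10 (edgeR adjusted p 0.0198). The call was lost in 5 of 12 fits, those without control replicate 2 of E9.0, control replicate 1 of E9.5 or any of the E9.5 mutants. It was also lost with total counts only (-0.87, edgeR adjusted p 0.136), where the 14 alternatives ran from 3.41e-06 to 0.136.

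Dlx2, the neighbour of Dlx1, had an interaction of -1.41 ± 0.28 that did not pass (edgeR adjusted p 0.12). It passed in 5 of 14 alternatives with all libraries, with adjusted p from 0.00178 in DESeq2 to 0.208, and in 2 of 12 fits without 1 library. Dlx2 was at 10.6, 8.20 and 7.01 CPM in E9.0 controls, 6.99, 4.92 and 7.90 CPM in E9.0 mutants, 12.1, 8.36 and 11.1 CPM in E9.5 controls and 3.0, 3.47 and 2.66 CPM in E9.5 mutants. Only at E9.5 were the genotypes apart, and Dlx2 fell in mutants between stages by 1.10, with an SE of 0.21. Of the other family members, Dlx6 had an interaction of -0.94 ± 0.32 (edgeR adjusted p 0.399), Dlx3 of -0.24 ± 0.29 (0.864) and Dlx5 of -0.03 ± 0.28 (0.989). All 5 tested Dlx genes had values below 0 under TMM, RLE, upper-quartile and total-count scaling, with a median of -0.94, 1 past the threshold and 3 negative at an unadjusted p under 0.05 (4.52% of all genes). Dlx5, however, moved to 0.03 after correction for GC content and transcript length.

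The wider list of arch patterning factors had 15 tested members with a median interaction of -0.20, against 0.009 over all genes. The median was -0.31 without control replicate 1 of E9.0 and -0.09 without mutant replicate 3 of E9.0. Lhx8, Barx1 and Msx1 were its only members past the threshold or at an unadjusted p under 0.05, all 3 negative (4.52% of all genes). Msx2 was at -0.33 ± 0.20 (edgeR adjusted p 0.691) and Hand2, a factor of the distal arch, at -0.37 ± 0.31 (edgeR adjusted p 0.780). Hand2 was at 28.8, 16.2 and 26.0 CPM in E9.5 controls and at 22.8, 25.6 and 26.2 CPM in E9.5 mutants, which overlapped. The genes of the frontonasal and general facial mesenchyme showed no shared direction, with 7 of 13 above 0 (median 0.19, and -0.15 without control replicate 2 of E9.5) and 2 at an unadjusted p under 0.05, both positive (4.08% of all genes). Pax9, a paired box factor, had the value 0.66 ± 0.26 (edgeR adjusted p 0.503). Of 8 genes of endothelin signalling, which patterns the lower jaw, 7 lay above 0, and Mef2c, a nuclear target of the pathway that is also expressed in endothelium, had the smallest p at 0.47 ± 0.12 (edgeR adjusted p 0.237). With total counts as the only scaling, which shifts the median of all genes to -0.192, 1 of these 8 was above 0 and 6 were above that median.

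**Figure D3:**
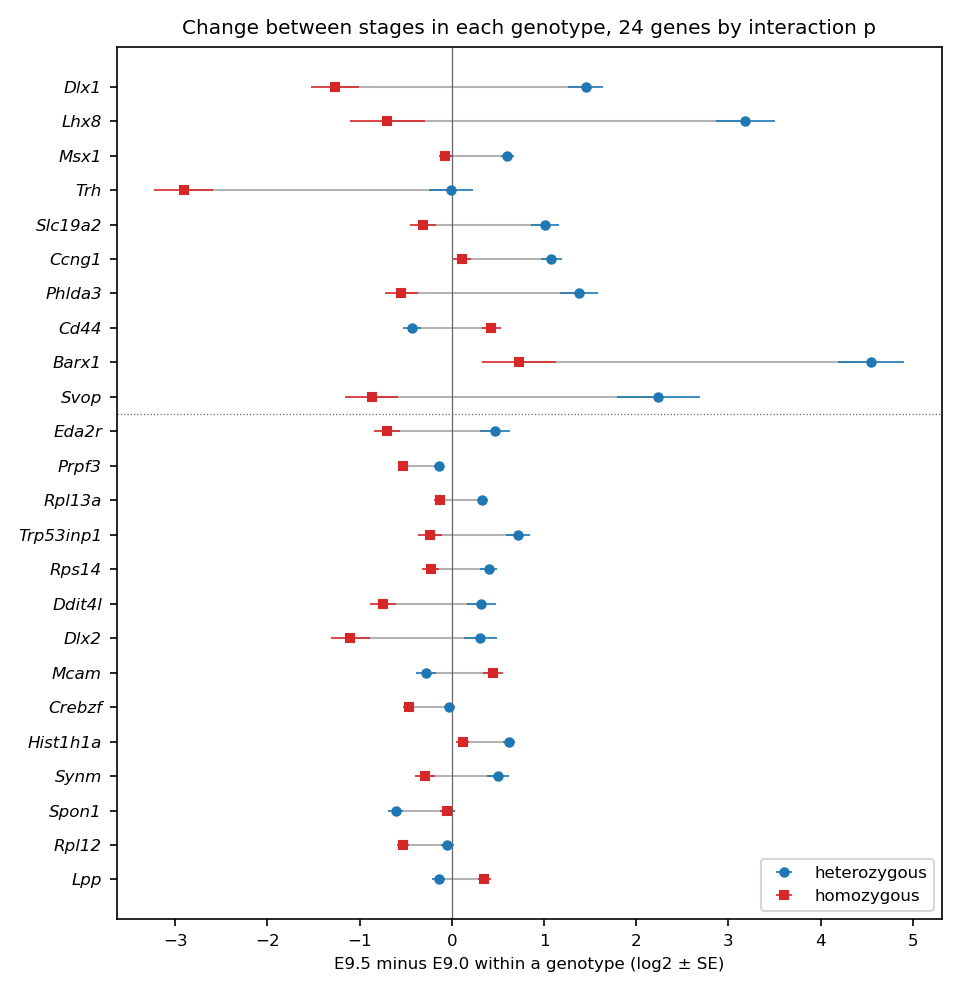
Log2 change from E9.0 to E9.5 in heterozygous (blue circles) and homozygous libraries (red squares) with standard errors, for the 24 genes with the smallest interaction p from top to bottom. The distance between the markers of a gene is its interaction, and the 10 genes above the dotted line passed the threshold. Among these 10, controls rose for Lhx8 and Barx1 and mutants fell for Trh. Both genotypes changed past the threshold, in opposite directions, for Dlx1, Cd44, Phlda3 and Svop.

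Ccng1 and Phlda3 were the p53 list genes past the threshold, both with the larger genotype difference at E9.0. Ccng1 encodes cyclin G1, a p53 target that feeds back on Mdm2 (chr11:40748552-40755309, minus strand). It was at 27.4, 39.0 and 40.9 CPM in E9.0 controls and at 102, 95.7 and 94.3 CPM in E9.0 mutants, against 77.9, 80.6 and 70.7 CPM in E9.5 controls and 111, 105 and 99.5 CPM in E9.5 mutants. The genotypes were separate at both stages, and the level that moved was that of the controls, which rose between stages by 1.08 ± 0.11, whereas the mutants changed by 0.11 ± 0.10 (edgeR adjusted p 0.418). The genotype difference of 1.43 ± 0.11 at E9.0 compared with 0.46 ± 0.10 at E9.5, and the interaction was -0.97 ± 0.15 (edgeR adjusted p 0.0213). The call was kept in 4 of 12 fits, those without control replicate 1 or 3 of E9.0 or control replicate 2 or 3 of E9.5, and was lost without each of the other 8 libraries. Of 14 alternatives that keep all libraries, 3 ended the call, among them total counts only (edgeR adjusted p 0.0977) and no filter on low counts (edgeR adjusted p 0.0559). Over the 14 the adjusted p ran from 6.02e-07 with DESeq2 to 0.0977 with edgeR.

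Phlda3 encodes a p53-induced inhibitor of Akt signalling (chr1:135766085-135769134, plus strand). Its level was 4.26, 4.23 and 5.97 CPM in E9.0 controls, 22.9, 19.8 and 35.5 CPM in E9.0 mutants, 14.4, 11.5 and 12.5 CPM in E9.5 controls and 19.6, 16.7 and 17.1 CPM in E9.5 mutants. The controls rose by 1.38 ± 0.21 while the mutants fell by 0.55, with an SE of 0.18 (edgeR adjusted p 0.0314), so that the genotypes came closer without overlapping. The interaction was -1.93 ± 0.28 (edgeR adjusted p 0.0213). It lost its call in 6 of 12 fits, those without control replicate 1 or 2 of E9.0, control replicate 1 of E9.5 or any of the E9.5 mutants. The call was also lost with limma-voom (adjusted p 0.0678) and with edgeR and no filter, and the 14 alternatives gave 5.67e-09 to 0.0678.

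Mdm2 was at 52.6, 52.7 and 55.5 CPM in E9.0 controls and at 70.6, 71.2 and 73.9 CPM in E9.0 mutants. At E9.5 the values were 55.9, 55.9 and 50.2 CPM in controls and 51.8, 57.0 and 57.0 CPM in mutants. The 3 E9.0 mutant libraries thus stood above the other 9. Between stages Mdm2 fell in mutants by 0.38, with an SE of 0.06, and the controls changed by 0.01 ± 0.06. The interaction of -0.39 ± 0.09 did not pass (edgeR adjusted p 0.18), although DESeq2 called Mdm2 (adjusted p 0.0259). Trp53 fell between stages in both genotypes, by 0.44 in controls and by 0.42 in mutants (SE 0.09 each), and its interaction was 0.02 ± 0.13 (edgeR adjusted p 0.989), of changing sign between settings. The list of p53 and its regulators had 5 tested members with a median of -0.04, of which 3 lay below 0, 2 were negative at an unadjusted p under 0.05 (4.52% of all genes) and 1, Ccng1, passed. The median ran from -0.12 without control replicate 1 of E9.0 to 0 (rounded) without control replicate 3 or mutant replicate 1 of E9.0. With total counts only, all 5 lay below 0, but that scaling shifts the median of all genes to -0.192.

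Cdkn1a, the cyclin-dependent kinase inhibitor p21 and a main effector of p53-dependent arrest, was at 2.35, 2.84 and 3.57 CPM in E9.0 controls and 18.8, 12.9 and 30.9 CPM in E9.0 mutants. At E9.5 it was at 5.33, 6.16 and 6.00 CPM in controls and 13.2, 12.1 and 12.4 CPM in mutants. It rose between stages in controls by 0.96 ± 0.30 and fell in mutants by 0.73, with an SE of 0.23. Its interaction of -1.69 ± 0.38 missed the threshold (edgeR adjusted p 0.185), and the E9.0 mutants spread widely, at 20.9 ± 9.20 CPM (SD, n = 3). Cdkn1a passed in 2 of 14 alternatives with all libraries, with adjusted p from 0.000585 in DESeq2 to 0.359. It passed in 1 of 12 fits without 1 library.

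The list of p53 targets of arrest and stress had 13 tested members of 14, with a median interaction of -0.51. Of these, 12 lay below 0, 1 (Phlda3) passed the threshold and 10 had a negative interaction at an unadjusted p under 0.05, where the background is 4.52%. The genotype difference of the list had a median of 0.87 at E9.0 against 0.36 at E9.5. Between stages the median change was 0.41 in controls and -0.55 in mutants. Members named by the rule, none of which passed, were Trp53inp1, an autophagy and stress gene (-0.96 ± 0.18, edgeR adjusted p 0.116), Ddit4l, an inhibitor of mTOR signalling (-1.08 ± 0.21, 0.116), Btg2 (-0.48 ± 0.13, 0.237) and Gtse1 (-0.43 ± 0.11, 0.24). Sesn2 (-0.67 ± 0.18, edgeR adjusted p 0.25), Plk2 (-0.51 ± 0.15, 0.307), Ptprv (-2.12 ± 0.66, 0.348) and Zmat3 (-0.20 ± 0.13, 0.701), which were called at E9.0, lay in the same direction. Of all these genes, from Trp53inp1 to Zmat3, DESeq2 called only Trp53inp1 (adjusted p 0.000209) and Ddit4l (0.0108). After correction for GC content and transcript length, only Trp53inp1 of them passed (edgeR adjusted p 0.0208). The members and lists were chosen with results of these data known, so the shared direction is a description.

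Among 11 p53 targets of cell death, all had values below 0, with a median of -0.28, 5 at an unadjusted p under 0.05 (4.52% of all genes) and 0 past the threshold. Without control replicate 1 of E9.0 the 5 became 3 and 10 of 11 were below 0. Eda2r, a receptor of the tumour necrosis factor family, came closest at -1.18 ± 0.21 (edgeR adjusted p 0.0529). It passed in 7 of 14 alternatives with all libraries, with adjusted p from 5.64e-05 in DESeq2 to 0.139, and in 2 of 12 fits without 1 library. It was at 5.21, 7.50 and 8.72 CPM in E9.0 controls and 28.7, 27.2 and 30.9 CPM in E9.0 mutants, and at 10.5, 10.2 and 9.62 CPM and 20.9, 17.7 and 14.7 CPM in the respective E9.5 groups. Eda2r fell in mutants between stages by 0.70 (SE 0.14) and rose in controls by 0.47 ± 0.16. Bax, the effector of mitochondrial permeabilisation, had -0.36 ± 0.10 (edgeR adjusted p 0.269), Pmaip1 (Noxa) -0.66 ± 0.22 (0.399) and Fas -1.87 ± 0.75 (0.505). Fas was barely present, with a mean of 10.6 counts and with 0, 0.107 and 0.215 CPM in E9.0 controls. Tnfrsf10b, a death receptor called at both stages, had -0.14 ± 0.20 (0.898). Of 10 p53 targets of repair and metabolism, 8 lay below 0 with a median of -0.15, and Ak1, an adenylate kinase, was the only one at an unadjusted p under 0.05 (-0.55 ± 0.14, edgeR adjusted p 0.237).

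Promoters of the p53 group were searched for the p53 consensus decamer, the 10-base unit of the p53 response element, which reads the same on both strands. Windows of 300 bases, from 250 before to 50 after the start site, came from RefSeq (GRCm38.p6). The decamer was present in 8.36% of 32851 windows, in 8.21% of the 11036 tested genes with a window and in 13 of 30 tested p53 list genes with a window. Of the 10 genes past the interaction threshold 9 had a window, and Ccng1 alone held the decamer. The windows are shown for Ccng1, the p53 feedback gene past the threshold, and for Mdm2 and Cdkn1a, with the decamer in capitals. Cdkn1a has 2 windows, and its window without the decamer is not shown. A match is a description of the letters and no evidence of binding.
Ccng1 (GRCm38.p6 chr11:40755237-40755536, minus strand): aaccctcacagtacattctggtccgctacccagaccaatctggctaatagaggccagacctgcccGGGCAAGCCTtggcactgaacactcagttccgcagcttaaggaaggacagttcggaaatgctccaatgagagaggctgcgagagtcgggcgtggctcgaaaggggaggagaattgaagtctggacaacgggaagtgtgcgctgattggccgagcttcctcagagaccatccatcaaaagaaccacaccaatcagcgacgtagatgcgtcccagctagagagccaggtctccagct
Mdm2 (GRCm38.p6 chr10:117710709-117711008, minus strand): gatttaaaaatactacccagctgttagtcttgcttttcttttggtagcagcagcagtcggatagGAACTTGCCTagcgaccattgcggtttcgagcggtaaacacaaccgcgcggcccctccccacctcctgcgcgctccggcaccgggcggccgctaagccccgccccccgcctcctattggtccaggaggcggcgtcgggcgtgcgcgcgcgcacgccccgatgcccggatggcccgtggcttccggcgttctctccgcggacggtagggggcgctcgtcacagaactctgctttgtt
Cdkn1a (GRCm38.p6 chr17:29090729-29091028, plus strand): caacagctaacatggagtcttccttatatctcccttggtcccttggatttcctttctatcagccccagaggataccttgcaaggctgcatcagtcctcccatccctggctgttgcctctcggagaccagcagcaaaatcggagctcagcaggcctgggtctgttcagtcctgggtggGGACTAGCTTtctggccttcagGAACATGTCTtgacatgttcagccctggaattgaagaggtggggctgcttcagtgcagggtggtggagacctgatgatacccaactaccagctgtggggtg

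A pair of further genes past the threshold had the same form as the p53 targets without being members of those lists. Slc19a2 encodes a thiamine transporter (chr1:164249046-164265385, plus strand). It was at 6.09, 7.13 and 7.91 CPM in E9.0 controls, 21.6, 19.8 and 30.9 CPM in E9.0 mutants, 16.1, 13.9 and 13.0 CPM in E9.5 controls and 19.4, 19.2 and 19.7 CPM in E9.5 mutants. It rose in controls by 1.01 ± 0.15, the change in mutants was -0.31 ± 0.14 (edgeR adjusted p 0.094), and the interaction was -1.32 ± 0.21 (edgeR adjusted p 0.0213). The call was lost without the same 6 libraries as that of Phlda3, and with limma-voom (adjusted p 0.0546, over 14 alternatives 4.05e-06 to 0.0546).

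Svop encodes a transporter-like protein of synaptic vesicles (chr5:114026913-114091380, minus strand). Its level was 0.293, 0.0536 and 0.301 CPM in E9.0 controls, with 1 count in replicate 2, and 2.03, 1.83 and 3.71 CPM in E9.0 mutants. At E9.5 it was at 0.945, 0.939 and 1.24 CPM in controls and at 1.48, 1.32 and 1.31 CPM in mutants. The groups were apart at both stages, and most of the difference had closed at E9.5 from both sides, with a rise of 2.24 ± 0.45 in controls and a fall by 0.87 (SE 0.29) in mutants. The interaction of -3.11 ± 0.53 (edgeR adjusted p 0.0377) was kept in 2 of 12 fits, those without mutant replicate 2 of E9.0 or control replicate 2 of E9.5, and was lost without each of the other 10 libraries. It was also lost with limma-voom (adjusted p 0.0829) and with edgeR dispersions estimated without the robust option, over 13 alternatives that gave 0.000459 to 0.0829. Usp30 overlaps Svop on the opposite strand. Synm, the intermediate filament gene synemin, and Crebzf, a bZIP transcription factor, were also higher in E9.0 mutants and closer at E9.5, with interactions of -0.79 ± 0.16 and -0.44 ± 0.09 that did not pass (edgeR adjusted p 0.12 each).

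Trh, the precursor of thyrotropin-releasing hormone, a neuropeptide (chr6:92242061-92244650, minus strand), differed from the arch genes in that its controls did not move between stages. It was at 8.44, 8.58 and 11.8 CPM in E9.0 controls and 6.76, 8.87 and 7.90 CPM in E9.0 mutants. At E9.5 it was at 6.83, 14.1 and 7.81 CPM in controls and at 1.11, 1.26 and 0.712 CPM in mutants. The mutants fell by 2.91 (SE 0.32), the controls changed by -0.01 ± 0.24 and the interaction was -2.91 ± 0.41 (edgeR adjusted p 0.0213). The call was kept in 5 of 12 fits. It was lost without control replicate 1 or 2 of E9.0, mutant replicate 2 or 3 of E9.0, or any of the E9.5 mutants. Limma-voom (adjusted p 0.138) and edgeR without a filter ended it too, and the 14 alternatives gave 3.03e-10 to 0.138.

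Genes of the midbrain-hindbrain boundary, a signalling centre of the neural tube, were examined next, and 0 of 13 passed. En2, an engrailed homeobox factor, was at 25.5, 22.4 and 35.3 CPM in E9.0 controls, 7.89, 12.5 and 7.22 CPM in E9.0 mutants, 24.3, 49.7 and 30.6 CPM in E9.5 controls and 1.04, 1.81 and 1.27 CPM in E9.5 mutants. The groups were apart at both stages and the mutants were lower at E9.5, but the interaction of -3.07 ± 0.53 had an edgeR adjusted p of 0.133. En1 had -2.77 ± 0.65 (edgeR adjusted p 0.247), Pax5 -1.81 ± 0.58 (0.399) and Fgf8, the secreted signal of the boundary, -0.62 ± 0.20 (0.375). DESeq2 called En2 (adjusted p 1.36e-06), En1 (0.0247) and Pax5 (0.0447), and of the 14 alternatives with all libraries 2 called En2 and 1 each called En1 and Pax5. Over these the adjusted p reached 0.314 for En2, 0.383 for En1 and 0.654 for Pax5. These 4 were the members at an unadjusted p under 0.05 among 13, all negative (4.52% of all genes), and of the 13 10 lay below 0 with a median of -0.20. The median was -0.37 without mutant replicate 2 of E9.5 and -0.06 without control replicate 2 of E9.5. Control replicate 2 was the highest E9.5 control in Trh, En2, En1 and Pax5. Wnt1, called at E9.5, had an interaction of -0.34 ± 0.24 (edgeR adjusted p 0.729).

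Forebrain and eye field factors had 12 of 16 values above 0 and a median of 0.25, with 3 positive at an unadjusted p under 0.05 (4.08% of all genes). The median was 0.11 without mutant replicate 3 of E9.5 and 0.38 without mutant replicate 3 of E9.0 or mutant replicate 1 of E9.5. Among them were Rax, the retinal homeobox factor (0.65 ± 0.22, edgeR adjusted p 0.399), and Six6 (0.42 ± 0.19, 0.562). Rax was at 10.5, 9.76 and 11.3 CPM in E9.0 controls, 9.99, 10.5 and 13.8 CPM in E9.0 mutants, 4.17, 3.64 and 4.97 CPM in E9.5 controls and 8.19, 6.05 and 7.42 CPM in E9.5 mutants. Rax was thus apart between genotypes at E9.5 and overlapped at E9.0. With total counts only, 0 of the 16 had an unadjusted p under 0.05, and 12 were above the shifted median.

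Neural crest specifiers and migratory genes had a median of -0.13, with 12 of 17 below 0, 4 negative at an unadjusted p under 0.05 (4.52% of all genes) and 0 past the threshold. The median was -0.26 without control replicate 2 of E9.5 and -0.04 without control replicate 3 of E9.5. Foxd3, a forkhead factor of early crest, was at 10.6, 6.65 and 8.25 CPM in E9.0 controls and 7.51, 9.27 and 9.38 CPM in E9.0 mutants, and at 2.99, 1.58 and 2.38 CPM in E9.5 controls and 1.08, 0.583 and 0.30 CPM in E9.5 mutants. It fell between stages in both genotypes, by 1.87 in controls and by 3.71 in mutants, and the interaction of -1.85 ± 0.43 did not pass (edgeR adjusted p 0.18). Crabp1, a retinoic acid binding protein, had -0.63 ± 0.14 (edgeR adjusted p 0.18), and Pax3, a paired box factor, -0.45 ± 0.15 (0.409). Tfap2b, an AP-2 factor called at both stages (-0.78 and -1.15), had -0.37 ± 0.14 (edgeR adjusted p 0.492). Sox10, which marks migrating and glial crest and was called at E9.5, had -0.56 ± 0.28 (0.612). Among glial crest genes Cdh19, a cadherin called at both stages, was at -0.52 ± 0.48 (0.802).

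In the list of ganglion and early neuron genes the median change between stages was 1.65 in controls and 1.74 in mutants, and the median interaction was -0.07. It was -0.15 without control replicate 2 of E9.5 and 0.10 without control replicate 3 of E9.0. Pou4f1, the Brn3a factor of sensory neurons, was at 4.84, 5.25 and 5.37 CPM in E9.0 controls, 6.09, 5.84 and 6.08 CPM in E9.0 mutants, 8.81, 15.8 and 10.5 CPM in E9.5 controls and 5.80, 5.31 and 7.12 CPM in E9.5 mutants. The mutants were slightly higher at E9.0 and lower at E9.5 without overlap, yet the interaction of -1.16 ± 0.27 did not pass (edgeR adjusted p 0.18). Stmn2 (-0.94 ± 0.25, edgeR adjusted p 0.254) and Tubb3 (-0.41 ± 0.11, 0.261), both of the neuronal cytoskeleton, and the neurogenic factor Neurod1 (-0.98 ± 0.32, 0.387) were the other 3 negative members at an unadjusted p under 0.05 (4.52% of all genes) among 19. Neurod4, of the same factor family as Neurod1, was the 1 positive member (0.94 ± 0.41, 0.543).

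**Figure D4:**
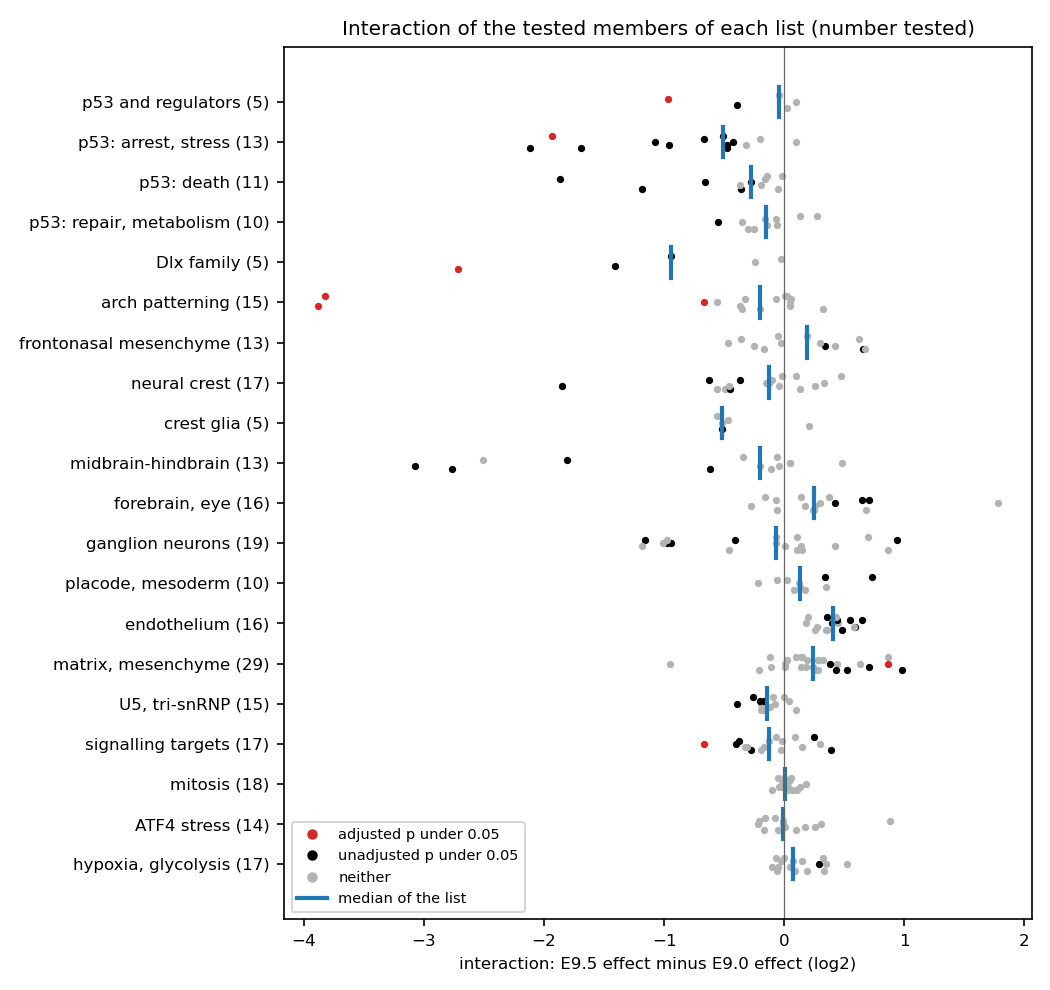
Interaction on the log2 scale of every tested member of 20 gene lists, with the number tested in brackets and the median of each list as a blue bar. Red points passed the threshold over all genes, black points had an unadjusted p under 0.05 and grey points neither; the p53 lists of arrest and death and the Dlx list lie mostly below 0, and the endothelial list lies wholly above it.

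Cd44, the only positive call, encodes a cell surface receptor for hyaluronan (chr2:102811141-102901669, minus strand). Its level was 17.5, 17.9 and 15.2 CPM in E9.0 controls, 17.4, 15.3 and 14.4 CPM in E9.0 mutants, 12.6, 12.6 and 12.3 CPM in E9.5 controls and 19.0, 22.5 and 21.7 CPM in E9.5 mutants. The genotypes overlapped at E9.0 and were apart at E9.5, since Cd44 fell in controls by 0.43 (SE 0.10) and rose in mutants by 0.43 ± 0.10. The interaction was 0.86 ± 0.14 (edgeR adjusted p 0.0213). It was 0.65 with total counts only (adjusted p 0.559), the largest adjusted p of 14 alternatives that ranged down to 5.32e-05. The call was kept in 4 of 12 fits, those without control replicate 3 or mutant replicate 1 of E9.0, or control replicate 2 or mutant replicate 1 of E9.5, and was lost without each of the other 8 libraries.

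Of 29 genes of matrix and mesenchyme, 25 had values above 0, with a median of 0.24, 6 at an unadjusted p under 0.05, all positive (4.08% of all genes), and 1 (Cd44) past the threshold. The median was 0.14 without control replicate 2 of E9.5. With total counts only, 15 of 29 were above 0, and 23 were above the shifted median of all genes. The other 5 were Col6a2 (0.71 ± 0.24, edgeR adjusted p 0.399) and Col6a1 (0.52 ± 0.20, 0.492), chains of collagen VI, Vcan, the proteoglycan versican (0.43 ± 0.15, 0.476), Fbn2, a fibrillin (0.38 ± 0.14, 0.492), and Lox, a collagen crosslinking enzyme (0.98 ± 0.43, 0.543). Col6a2 was at 5.87, 4.82 and 5.16 CPM in E9.0 controls, 5.11, 4.41 and 5.81 CPM in E9.0 mutants, 7.77, 5.13 and 8.20 CPM in E9.5 controls and 11.5, 10.4 and 11.4 CPM in E9.5 mutants. It was thus apart between genotypes at E9.5 and overlapped at E9.0. Among the next 14 genes by p, the adhesion molecule Mcam (0.74 ± 0.15), the matrix protein Spon1 (0.56 ± 0.12) and the focal adhesion protein Lpp (0.48 ± 0.10) were the 3 positive ones and did not pass (edgeR adjusted p 0.12 each). Mcam rose in mutants between stages by 0.45 ± 0.11 and fell in controls by 0.28 (SE 0.11).

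All 16 endothelial genes had a positive interaction, with a median of 0.41, and 7 had an unadjusted p under 0.05, where the background is 4.08%, while 0 passed the threshold. The median was 0.24 without control replicate 2 of E9.5 and 0.53 without control replicate 3 of E9.5. With total counts only, 14 of 16 were above 0, all 16 were above the shifted median and 0 had an unadjusted p under 0.05. Flt1, a VEGF receptor, was at 26.8, 23.6 and 23.0 CPM in E9.0 controls, 23.7, 25.6 and 27.3 CPM in E9.0 mutants, 17.6, 13.3 and 18.1 CPM in E9.5 controls and 25.6, 25.7 and 24.1 CPM in E9.5 mutants. The 3 E9.5 controls stood below the other 9 libraries. The interaction of Flt1 was 0.55 ± 0.15 (edgeR adjusted p 0.258). Cdh5, the endothelial cadherin, had 0.59 ± 0.18 (edgeR adjusted p 0.352), Tek, the angiopoietin receptor, 0.36 ± 0.13 (0.426), Ramp2 0.48 ± 0.18 (0.484), Kdr 0.40 ± 0.15 (0.496), Eng 0.44 ± 0.19 (0.525) and Sox18 0.65 ± 0.29 (0.544). The summed level of the list was 365 to 397 CPM in E9.0 controls, 432 to 447 CPM in E9.0 mutants, 237 to 342 CPM in E9.5 controls and 426 to 488 CPM in E9.5 mutants. This level moved in the same direction as Cd44, and its part in the value of Cd44 was not tested.

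Among placode and pharyngeal mesoderm genes 8 of 10 lay above 0, with a median of 0.13 (3 of 10 above 0 with total counts only, and 8 above the shifted median). The median was 0.08 without control replicate 1 of E9.0. Tbx1, a T-box factor of pharyngeal mesoderm and endoderm, was at 28.2, 19.6 and 18.9 CPM in E9.0 controls, 27.3, 23.0 and 27.5 CPM in E9.0 mutants, 12.9, 11.3 and 12.6 CPM in E9.5 controls and 23.5, 23.8 and 24.1 CPM in E9.5 mutants. The E9.5 controls stood below all other libraries, as in Flt1. The controls changed between stages by -0.85 and the mutants by -0.12, and the interaction of 0.73 ± 0.18 did not pass (edgeR adjusted p 0.195). Tbx1 passed with DESeq2 (adjusted p 0.0354) and after correction for GC content and transcript length (edgeR adjusted p 0.0316), but not with limma-voom. Of 17 targets of FGF, hedgehog, BMP and Wnt signalling, 4 were negative and 2 positive at an unadjusted p under 0.05 (4.52% and 4.08% of all genes), and Msx1 was the 1 past the threshold. Dusp6, an FGF feedback gene, had -0.40 ± 0.10 (edgeR adjusted p 0.237), Axin2, a Wnt feedback gene, -0.38 ± 0.13 (0.408) and Id2, a BMP target, 0.25 ± 0.09 (0.399).

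Among proteins of the U5 snRNP and the tri-snRNP, a list that includes Eftud2 itself, 13 of 15 had values below 0, with a median of -0.14, 4 negative at an unadjusted p under 0.05 (4.52% of all genes) and 0 past the threshold. The 4 became 2 with total counts only and 8 after correction for GC content and transcript length, where 5.27% of all genes were negative at that p. Prpf3, a U4/U6 protein, was at 75.2, 71.6 and 75.2 CPM in E9.0 controls, 110.1, 105 and 111 CPM in E9.0 mutants, 68.7, 68.5 and 64.4 CPM in E9.5 controls and 74.8, 76.4 and 75.3 CPM in E9.5 mutants. The E9.0 mutants stood above all other libraries, and Prpf3 fell in mutants between stages by 0.53 (SE 0.05). The interaction of -0.39 ± 0.07 did not pass (edgeR adjusted p 0.0891). Prpf3 passed with DESeq2 (adjusted p 0.000772) and after correction for GC content and transcript length (edgeR adjusted p 0.0334), but not with limma-voom. Aar2, a U5 assembly factor, had -0.26 ± 0.08 (edgeR adjusted p 0.387), Snrnp40 -0.20 ± 0.08 (0.525) and Prpf4 -0.17 ± 0.08 (0.574). Snrnp200, the U5 helicase, called at E9.0, had -0.19 ± 0.09 (0.589).

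Several of the next genes by p encode ribosomal proteins or histones, so both families were counted after their values had been seen. Rpl13a was at 999.5, 1047 and 1116 CPM in E9.0 controls, 1145, 1230.1 and 1226 CPM in E9.0 mutants, 1343, 1385 and 1251 CPM in E9.5 controls and 1127, 1139 and 1031 CPM in E9.5 mutants. It was apart at both stages, higher in mutants at E9.0 and lower at E9.5, and its interaction of -0.46 ± 0.09 did not pass (edgeR adjusted p 0.0891). Rps14 (-0.64 ± 0.12, edgeR adjusted p 0.116), Rpl12 (-0.48 ± 0.10, 0.12) and the linker histone gene Hist1h1a (-0.50 ± 0.10, 0.12) had the same form. Of 80 tested ribosomal protein genes 78 lay below 0, with a median of -0.22 and 42 negative at an unadjusted p under 0.05, against 4.52% of all genes. Of 58 histone cluster genes 51 lay below 0, with a median of -0.34 and 26 negative at the same p. Processed pseudogenes and near-identical histone copies make the counts of single members uncertain.

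These families are short transcripts, and the interaction moved with transcript length over all genes. Genes with length and GC content were divided by each into 5 classes of nearly equal size. In the class of shortest genes the median was -0.072, with 273 negative and 50 positive genes at an unadjusted p under 0.05. In the class of longest genes it was 0.066, with 64 negative and 217 positive. By GC content the medians ran from 0.049 in the lowest class to -0.037 in the highest. With a correction for both, the median of ribosomal protein genes was -0.12 with 27 negative genes at an unadjusted p under 0.05, and that of histone cluster genes was -0.13 with 13 negative and 3 positive. The corrected background was 5.27% negative and 4.00% positive. Under the same correction the arrest and stress list had 10 negative members at an unadjusted p under 0.05, 9 of them shared with the uncorrected 10 (median -0.52). The Dlx list had 3, all shared (-0.92), and the endothelial list 8 positive members, 6 of them shared (0.42). The matrix and mesenchyme list holds long transcripts, with a median of 5614 bases against 3398 over all tested genes. Its median interaction was 0.24 before the correction and 0.16 after it, with 6 positive members at an unadjusted p under 0.05 after it.

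Lists of mitosis (18 genes), ATF4 stress response (14), neural progenitors (7), primitive erythroid cells (10), heart muscle (11), yolk sac (6) and hindbrain Hox genes (10) each had 0 members past the threshold by edgeR and 0 at an unadjusted p under 0.05. Over all genes 8.60% were at that p in either direction. The medians of these lists lay between -0.11 for heart muscle and 0.04 for yolk sac, but several turned with single libraries. Heart muscle was at -0.48 without control replicate 1 of E9.0 and 0.39 without mutant replicate 1 of E9.0. Erythroid genes were at -0.41 without control replicate 3 of E9.0 and 0.40 without mutant replicate 3 of E9.0. Yolk sac genes were at -0.23 without mutant replicate 2 and 0.25 without control replicate 1 of E9.5, hindbrain Hox genes at -0.28 without mutant replicate 1 of E9.5 and 0.17 without control replicate 3 of E9.0, and neural progenitor genes at -0.13 and 0.09 without control replicates 1 and 2 of E9.5. The median of the mitosis list was 0.01, and its 18 genes had interactions from -0.10 to 0.18. Of 17 genes of hypoxia and glycolysis, Pdk1 alone had an unadjusted p under 0.05 (0.29 ± 0.11, edgeR adjusted p 0.484), where 4.08% of all genes were positive. Of 12 trunk Hox genes 1 had enough counts to be tested.

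**Figure D5:**
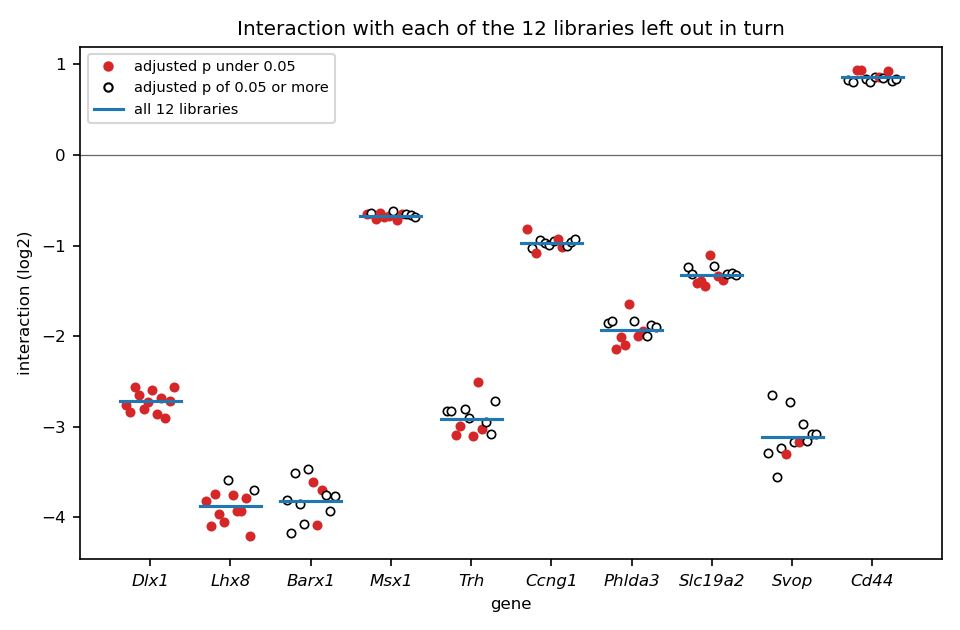
Interaction on the log2 scale of the 10 genes past the threshold (horizontal axis) when each of the 12 libraries was left out in turn. Filled red points kept an adjusted p under 0.05, open points did not, and blue bars are the values from all 12 libraries; the points of every gene stay on 1 side of 0, and only those of Dlx1 are all filled.

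Leaving out single libraries changed the number of calls more than their values. Among E9.5 libraries, 1 gene was called without mutant replicate 3, 2 without mutant replicate 2, 4 without replicate 1 of either genotype and 16 without control replicate 2. Among E9.0 libraries, 2 genes were called without control replicate 2, 4 without mutant replicate 3, 8 without mutant replicate 2 and 6 without control replicate 1, the library with the high Rn45s share. The log2 values of the 10 genes kept their sign in every one of these fits. Without control replicate 1 of E9.0, the positive members at an unadjusted p under 0.05 went from 2 to 1 in the frontonasal list (13 tested) and in the signalling list (17 tested). In the neuron list (19 tested with all libraries) they went from 1 to 2. In that fit 1288 of 15068 tested genes were at that p in either direction, and no change is read from these small counts. With total counts only, which shifts the median of all genes to -0.192, the negative members at that p went from 3 to 5 in the arch list (15 tested). In the glial list (5 tested) they went from 1 to 3. Under that scaling 925 of 14810 tested genes were at that p in either direction.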

How the data were processed

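The authors deposited 1 table of raw counts per gene symbol (24421 symbols, 12 library columns, 0 columns without a sample). Per the submitters' processing notes, cutadapt, MultiQC, STAR and featureCounts were used with build mm10; versions, annotation and strand setting are not given in the sources used here. The software was edgeR 4.0.16 under R 4.3.3. A filter by group (filterByExpr) kept 14810 genes and left out 9611 symbols. Libraries were scaled with TMM factors, and CPM are counts relative to the scaled library size. The model had 1 mean for each of the 4 groups and used all 12 libraries. The quasi-likelihood F test with robust dispersions was two-sided, p-values were Benjamini-Hochberg adjusted over all tested genes, and the threshold was 0.05. Standard errors are the log2 difference divided by the square root of F. The test was tested on simulated data, and the outcome is not reported here. Nothing in the labels says that libraries came from separate litters, so p-values measure the spread between these libraries.

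Genes named are those past the threshold whose mean count is at least 10, the next by p up to 24, Eftud2, Mdm2, Trp53, Cdkn1a and Ccng1, and per list up to 4 genes of smallest interaction p with those called at either stage, some of which are not reported here. Dlx3, Dlx5, Msx2 and Hand2 were added to complete their groups. Members and lists were chosen with earlier results of these data known, and lists were counted, not tested. The same replicate numbers did not pair the libraries. Alternatives were RLE, upper-quartile and total-count scaling, DESeq2 1.42.0, limma-voom (limma 3.58.1), no filter, non-robust dispersions, a minimum mean count of 50, the replicate number as a block, scaling without Rn45s, a Y-linked covariate, leaving out sex-linked and erythroid genes, a stricter threshold of 0.01, a 1.5-fold minimum difference and each library left out in turn; a correction for GC content and length was chosen after seeing the data. GENCODE M21 gave lengths, GC content and overlaps (23376 symbols matched directly, 670 through a synonym, 375 not), and RefSeq gave coordinates and promoters. Their builds, GRCm38 and GRCm38.p6, are the mm10 assembly.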

Additional observations from a re-analysis of the deposited data

Results flagged for a closer look

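Each of the 10 genes past the interaction threshold differed in its genotype effect between E9.0 and E9.5 by a test of that difference (edgeR, adjusted p between 0.00349 and 0.0377). The larger effect was at E9.5 for Lhx8 (interaction -3.88), Barx1 (-3.82), Trh (-2.91), Dlx1 (-2.72), Msx1 (-0.67) and Cd44 (0.86). The larger effect was at E9.0 for Svop (-3.11), Phlda3 (-1.93), Slc19a2 (-1.32) and Ccng1 (-0.97).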

How the results depend on the processing

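The 10 calls became 76 with DESeq2 (21 positive, 55 negative), 17 with the GC and length correction (3 positive, 14 negative), 5 with limma-voom, 2 with a test against a 1.5-fold difference and 1, Dlx1, at an adjusted p under 0.01. All 10 were among the calls of DESeq2 and of the GC and length correction. The cause of these differences was not tested. Leaving out 1 library gave 1 to 16 calls, of which 0 to 1 were positive and 1 to 15 negative. The share of negative calls, 9 of 10 in the main analysis, was 7 of 12 without a filter, where 6 of the 10 were shared, and 14 of 14 with total counts only, where 7 were shared and the median of all genes was -0.192. The replicate block gave 9 calls, all shared, without Ccng1 (adjusted p 0.0696), and changed no other of the 10 calls; with the GC and length correction it gave 14. Same-numbered libraries correlated with r between -0.389 and 0.24, in 4 of 18 pairs above 0.1, so the numbers show no pairing. The interaction of Eftud2 reversed to -0.11 with total counts only. The interaction of Trp53, 0.02, reversed to -0.21 with total counts only, to -0.01 with upper-quartile scaling and with the replicate block and GC and length correction, to 0 (rounded) with limma-voom and with the GC and length correction, and ran from -0.12 to 0.11 in fits without 1 library. The interaction of Dlx5, -0.03, reversed to 0.01 with limma-voom and to 0.03 with the GC and length correction, with and without the replicate block, and ran from -0.26 to 0.22 in fits without 1 library. Of 2646 values of 102 named genes under alternatives, 2484 kept their direction and side of the threshold, 75 lost the call, 69 gained it and 18 reversed. Among the 10 called genes Lhx8 and Svop had the fewest counts in a single library, 3 and 1, and neither could be tested with a mean of at least 50 counts required.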

Other observations

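DESeq2 called 66 genes beyond the 10, of which 20 had a positive and 46 a negative interaction, and its adjusted p was not given for 1437 genes. DESeq2 called 0.513% of the genes it tested, 7 of 80 ribosomal protein genes, 3 of 58 histone cluster genes and 7 of 39 tested members of the p53 lists, 5 of which are among the 66. The genes in the next sentences were chosen after their values were seen, and none passed the threshold in edgeR. Positive values were held by the matrix and cell surface genes Tgfbi (0.80, DESeq2 adjusted p 0.0212, edgeR adjusted p 0.18), Nid2, a basement membrane nidogen (0.42, 0.0286 and 0.18), and Itga6, an integrin laminin receptor (0.49, 0.0354 and 0.225). The scavenger receptor Stab1 (0.66, DESeq2 adjusted p 0.0212, edgeR adjusted p 0.18) and the guidance and VEGF co-receptor Nrp2 (0.53, 0.0365 and 0.212) were also positive. The growth regulators Hmga2 (0.34, DESeq2 adjusted p 0.00933, edgeR adjusted p 0.18) and Mycn (-0.49, 0.0309 and 0.18) had opposite signs.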
